A study of Mus musculus with 4 samples.

Results

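The AP-1 family genes taken here were Jun, Junb, Jund, Fos, Fosb, Fosl1, Fosl2, Batf, Batf3 and Atf3, and every open-chromatin peak whose assigned gene name in the deposited table is one of these 10 was kept. This gave 53 peaks of 130941 in the common peak set, from 1 peak each for Jun and Fosl1 to 13 for Fos. All 53 passed the filter on low counts, which kept 130754 peaks in all. Open chromatin was read by fast-ATAC, which cuts and tags accessible DNA with the Tn5 enzyme, on Lin-Sca1+cKit+ bone marrow cells, the sorted mouse fraction that holds the blood stem cells and multipotent progenitors. The mice were 10 weeks old, 2 wild type and 2 Helios null, with 1 library per mouse per the labels. Helios, the product of Ikzf2, is a zinc finger factor related to Ikaros. The extent of the Ikzf2 deletion was not stated in the labels. The sorted cells are a mixture, so a site open in more cells and a site more open per cell cannot be told apart.

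AP-1 is a dimer of basic leucine zipper proteins that binds the sequence TGACTCA. Jun proteins pair with each other or with Fos proteins, whereas Fos proteins need a Jun partner. Batf proteins lack a transactivation domain and pair with Jun proteins next to IRF sites in lymphocytes and dendritic cells, and Atf3 is a stress-induced member of the wider group. Fos, Fosb, Jun, Junb and Atf3 are immediate early genes, switched on within minutes by growth factors, cytokines or handling stress. In mouse blood stem cells Junb is known to restrain proliferation.

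The stretches just before the start sites of Fos, Junb, Jun and Atf3 are shown because all 250 bases of each lie inside a peak described here, and because these genes stand for the Fos, Jun and Atf3 branches and for both directions of difference. The sequences are from RefSeq on GRCm38.p6, the assembly that mm10 is built on, and read 5′ to 3′ on the gene's strand, ending at the base before the start site. Capitals mark TGACG on either strand, the core of the cyclic AMP response element, and TGACATCA on either strand, the variant AP-1 site long known in the Jun promoter.
Fos (chr12:85473640-85473889, plus strand): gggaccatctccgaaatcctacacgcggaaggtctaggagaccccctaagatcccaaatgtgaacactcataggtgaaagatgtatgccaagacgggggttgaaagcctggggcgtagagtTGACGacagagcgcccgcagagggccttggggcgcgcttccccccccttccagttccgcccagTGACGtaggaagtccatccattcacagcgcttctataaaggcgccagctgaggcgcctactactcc
Junb (chr8:84978749-84978998, minus strand): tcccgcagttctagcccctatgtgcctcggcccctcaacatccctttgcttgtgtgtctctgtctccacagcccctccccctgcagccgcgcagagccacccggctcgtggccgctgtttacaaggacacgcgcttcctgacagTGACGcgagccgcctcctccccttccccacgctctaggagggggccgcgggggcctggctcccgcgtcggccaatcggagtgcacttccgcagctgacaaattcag
Jun (chr4:95052223-95052472, minus strand): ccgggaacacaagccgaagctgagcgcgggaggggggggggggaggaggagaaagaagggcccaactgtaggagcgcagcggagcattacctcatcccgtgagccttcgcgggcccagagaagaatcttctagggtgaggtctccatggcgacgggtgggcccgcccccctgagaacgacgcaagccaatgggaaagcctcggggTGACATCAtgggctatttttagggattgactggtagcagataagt
Atf3 (chr1:191183334-191183583, minus strand): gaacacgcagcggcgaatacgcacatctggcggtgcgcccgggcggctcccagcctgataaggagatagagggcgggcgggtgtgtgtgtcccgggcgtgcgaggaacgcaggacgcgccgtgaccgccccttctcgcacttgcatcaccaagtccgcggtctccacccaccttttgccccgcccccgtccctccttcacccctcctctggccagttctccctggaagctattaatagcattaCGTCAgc

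Of the 10 genes, 9 had an entry in the promoter table, and Fosl1 did not. Of the 9 windows of 250 bases, 5 held TGACG on at least 1 strand (Fos, Fosb, Junb, Batf and Atf3), against 17.8% of 32841 RefSeq windows of the same kind. In Fos the core began 129 and 66 bases before the start, in Junb 106, in Fosb 60 and in Batf 98, and in Atf3 its complement CGTCA began 7 bases before. Only Jun among the 9 held TGACATCA, 45 bases before its start, against 2.93% of all windows. These 2 motifs were chosen after the sequences had been read, so their counts are a description. GC content ran from 46.4% to 76% over the 9 windows, beside a median of 52.4% over all windows. The full AP-1 site TGACTCA or TGAGTCA was in 0 of the 9 windows and 4.46% of all, the full response element TGACGTCA (which contains TGACG) in 0 and 1.55%, and the CArG box of serum response factor in 0 and 1.47%. The letters GGGAA or TTCCC, the core that Ikaros-family proteins bind, were in 7 of the 9 and in 56.2% of all windows. Sequence outside these windows was not searched for any of the motifs, so sites farther from the start would have been missed.

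The window before the RefSeq start of Jund was in no peak, and the nearest Jund peak lay 584 bp away. The deposited table classes the Jund peak centred 1.2 kb downstream of that start as promoter-TSS. The windows of Batf (250 of 250 bases), Fosl2 (209), Batf3 (167) and Fosb (128) were covered wholly or in part by peaks.

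The 53 peaks comprised 15 in the deposited table's promoter-TSS class, 16 in its distant-promoter class, 9 intergenic, 6 intronic, 4 at transcription end sites and 3 exonic. They ran from 80 to 2123 bp wide. Assignment by name left neighbouring sites out: within 50 kb of the start site the table held 21 peaks for Jun, of which 1 carried its name, and 23 for Fos, of which 13 did. Family genes also lie near each other. Fos and Batf are 209 kb apart on chromosome 12, with the family relative Jdp2 between them, and Batf3 and Atf3 are 61.4 kb apart on chromosome 1. These 2 are 121 Mb from Ikzf2, which is on the same chromosome. Peaks of neighbouring genes share their surroundings and are not independent.

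Libraries held 16033211 to 30290804 counts, and those numbered 1 were the deeper in both genotypes. Number also followed sex, with 1166 and 1715 counts at Y-linked genes in the libraries numbered 1 and 2 and 5 in those numbered 2. Of the genes that define the sort, Kit had 16 peaks, with summed values of 97.5 and 77.3 read counts scaled to library size (CPM) in wild type and 121 and 111 in Helios null, and Ly6a, which encodes Sca1, had none by name. The 4 stem cell markers all had peaks, with summed values of 546 and 574 CPM in wild type and 529 and 539 in Helios null and a median log2 fold change of -0.12 over 67 peaks. Of markers of other cells, Cd3g, Cd8a, Cd79a, Hba-a1 and Ms4a2 had no peak. The summed level of the B cell markers was 96.4 and 104 CPM in wild type and 74.0 and 81.3 in Helios null, and the median log2 fold change was -0.55 over 27 peaks. That of the mature myeloid markers was 180.4 and 163 against 156 and 163, with a median of -0.31 over 26 peaks. The T and NK cell markers gave 42.9 and 46.4 CPM against 39.4 and 32.9, with the null libraries lower. Erythroid markers (108 and 102 against 120.1 and 105 CPM), mast cell and basophil markers (12.5 and 20.2 against 16.5 and 10.6) and stroma and endothelium markers (146 and 153 against 162 and 150.1) overlapped between the groups. After each library's trend with local gene density (described below) was removed, the stem cell marker median was 0.23, with 54 of the 67 peaks above 0. The B cell and mature myeloid medians were then -0.30 and -0.36. The part of these marker differences in the values below was not tested.

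Levels were compared per kilobase, taking for each gene the peak with the highest mean CPM per kb. The Jun promoter stood highest, at 82.5 CPM per kb over the 4 libraries (range 70.7 to 99.3), above every library of the next gene. The distant-promoter peak of Fos 18.5 kb upstream (46.6, range 36.5 to 57.2), the peak over the Junb start (46.5, range 38.0 to 55.4), the Jund promoter (42.5, range 37.0 to 47.2), the exonic peak of Fosb (34.4, range 27.0 to 40.3) and the Fosl2 promoter (31.3, range 26.7 to 34.2) followed, and neighbours in this order overlapped in range. The broad Fos promoter peak, the widest of the 53, held 24.4 CPM per kb (range 19.7 to 28.4). The promoters of Batf (20.8, range 15.7 to 26.1), Atf3 (19.6, range 18.4 to 21.9) and Batf3 (17.6, range 16.0 to 18.9) lay below every library of Fosl2 and overlapped from one to the next. Fosl1 (8.22, range 5.83 to 9.28) was lowest, below every library of Batf3.

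**Figure D1:**
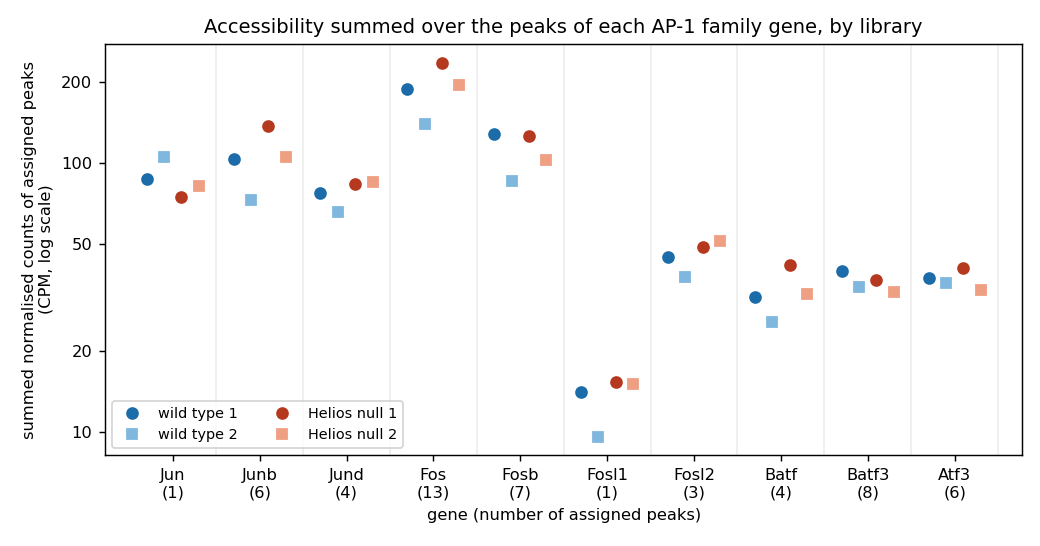
Summed normalised counts (CPM, log axis) over the peaks assigned to each gene, 1 point per library, with wild type in blue and Helios null in red, circles for number 1 and squares for number 2. Both null libraries lie above both wild-type libraries for Junb, Jund, Fos, Fosl1, Fosl2 and Batf and below them for Jun.

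Whether AP-1 genes differ in accessibility without Helios was asked with edgeR's quasi-likelihood test, fitted over all tested peaks. None of the 53 peaks passed an adjusted p of 0.05 (0 of 53, against 0.00612% of all tested peaks), the smallest adjusted p being 0.189. At an unadjusted p under 0.05, 6 peaks were higher in Helios null and 0 lower, against 8.29% and 11.5% of all tested peaks. These 6 were 3 peaks of Fos and 3 of Junb. DESeq2 called 0 of the 24 member peaks to which it gave an adjusted p (2.88% of all such peaks). Limma-voom called 0 of 53 (0.00306% of all). The authors' deposited table called 0 of the 30 member peaks with an adjusted p, against 1.41% of all. A model with a term for library number, which followed sex and depth, called 8 of the 53, all higher (4 of Fos and 4 of Junb), where it called 23.4% of all peaks and 10.6% as higher. Without wild type 1, edgeR called 9 of the 53, all higher, but it then called 21.5% of all peaks and 8.98% as higher.

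The log2 fold change of Helios null over wild type was above 0 at 41 of the 53 peaks, with a median of 0.26, beside a median of 0.01 and 50.4% above 0 over all tested peaks. The null pair exceeded the wild-type pair at 24 member peaks (45.3%) and below at 4 (7.55%), against 28% and 28.3% of all tested peaks. Within library numbers, 31 member peaks were above 0 in both and 7 below in both (37.0% and 37.2% over all tested peaks), and the median difference was 0.17 for number 1 and 0.35 for number 2. Peaks in gene-rich regions stood higher in the null libraries as a whole. The median log2 fold change was -0.39 over tested peaks with at most 5 protein-coding genes within 0.5 Mb and 0.31 over those with at least 17, and member peaks had a median of 17 such genes against 10 over all. With this trend removed, the member median was 0.02 and 27 of 53 were above 0. The median was 0.10 without wild type 2, 0.16 without Helios null 1 and 0.47 without wild type 1.

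**Figure D2:**
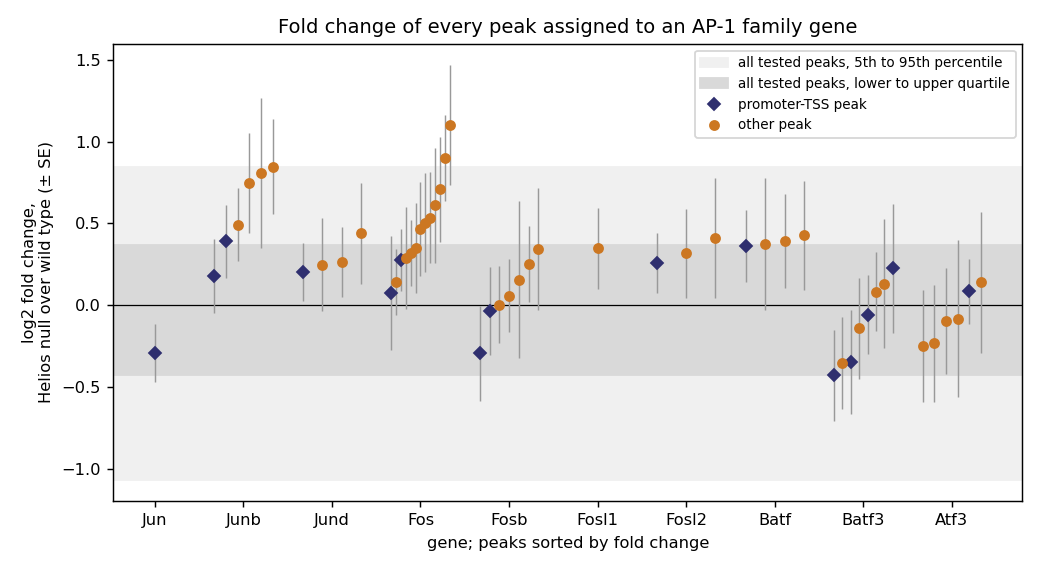
Log2 fold change of Helios null over wild type (vertical axis, bars ± SE) for each of the 53 peaks, grouped by gene, with diamonds for promoter-TSS peaks and circles for the others. Grey bands give the 5th to 95th (-1.07 to 0.84) and 25th to 75th (-0.43 to 0.37) percentiles over all tested peaks, and only Fos and Junb have points above the wider band.

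Within the Jun branch the values went both ways. Jun has a single peak over its promoter (chr4:95051940-95053000), with 87.5 and 105 CPM in wild type and 75.0 and 82.4 in Helios null. Both null libraries lay below both wild-type libraries, the only such case among the 7 genes of the Jun and Fos branches. Of all tested peaks, 28.3% had this order. The log2 fold change was -0.29 (SE 0.18, edgeR adjusted p = 0.36), and it was -0.22 and -0.35 within numbers 1 and 2. The value was -0.21 without the gene density trend and -0.098 with each library's trend with peak abundance removed by loess. It ran from -0.43 to -0.15 with 1 library left out.

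Junb, the family member that restrains stem cell division in the mouse, had 6 peaks, all with fold changes above 0. At its end-site peak (chr8:84974317-84974508) the values were 7.08 and 4.65 CPM in wild type and 12.3 and 8.99 in Helios null. The null values were the higher in each pairing there, with a log2 fold change of 0.85 (SE 0.29, edgeR adjusted p = 0.193) and within-number differences of 0.79 and 0.94. It was 0.54 without the gene density trend. Its peak with the highest CPM, 1.26 kb upstream of the start (chr8:84979483-84980540), held 38.4 and 26.1 CPM in wild type and 50.2 and 40.7 in Helios null. Here too the groups were apart, by 0.49 (SE 0.22, edgeR adjusted p = 0.252), but the value was 0.19 without the gene density trend and ran from 0.24 to 0.79 with 1 library left out. The neighbouring end-site peak (start 84975494) had a value of 0.75 (edgeR adjusted p = 0.224).

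The differences at Junb were smaller at the start site than downstream. The peak over the start (chr8:84978595-84979022) held 21.1 and 16.3 CPM in wild type and 23.7 and 18.6 in Helios null, so the groups overlapped (log2 fold change 0.18, SE 0.22, edgeR adjusted p = 0.663). The other promoter-TSS peak, 2.25 kb downstream (chr8:84976162-84976835), held 27.6 and 20.2 against 35.0 and 27.8 CPM (log2 fold change 0.39, SE 0.22, edgeR adjusted p = 0.332). Without the gene density trend these 2 values were -0.13 and 0.08. The difference between these positions was not tested. Summed over its 6 peaks, Junb held 103 and 73.0 CPM in wild type and 137 and 106 in Helios null, with a median log2 fold change of 0.62 per peak. That median was 0.32 once the trend with gene density was removed, and 38 protein-coding genes lie within 0.5 Mb.

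Jund, a broadly expressed member, had 4 peaks, each with both null libraries above both wild-type libraries. Such a separation was found at 28% of all tested peaks and at 47.7% of those with at least 17 genes within 0.5 Mb. The Jund promoter-TSS peak (chr8:70698322-70699526) held 50.5 and 44.6 CPM in wild type and 52.7 and 56.8 in Helios null. The gap between the groups was smaller than the SD of either, and the log2 fold change was 0.20 (SE 0.18, edgeR adjusted p = 0.521). The upstream peak with the smallest p (chr8:70693704-70693858) held 3.22 and 2.58 against 4.52 and 3.40 CPM (log2 fold change 0.44, SE 0.31, edgeR adjusted p = 0.422). Without the gene density trend, 1 of the 4 Jund peaks was above 0 and their median was -0.06.

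Fos, the prototype immediate early gene, had 13 peaks, from 18.5 kb before its start to 24.0 kb after it, and all 13 had fold changes above 0. At 10 of them both null values exceeded both wild-type values. This separation was found at 28% of all tested peaks and at 47.7% of those with at least 17 genes within 0.5 Mb. Summed over the 13, Fos held 189 and 140.3 CPM in wild type and 236 and 196 in Helios null, the most of any member. The values were largest away from the promoter. A distant-promoter peak 16.0 kb upstream (chr12:85457683-85458025) held 7.74 and 5.30 CPM in wild type and 12.5 and 12.0 in Helios null. This was the largest gap relative to its error among the 53 peaks, with a log2 fold change of 0.90 (SE 0.26, edgeR adjusted p = 0.189). Within numbers 1 and 2 it was 0.69 and 1.17, and it was 0.68 without the gene density trend. In the authors' deposited table its log2 fold change was 0.68 with an adjusted p of 0.0794, the smallest of any member. The DESeq2 fit made here gave 0.90 for this peak. At other member peaks too the deposited fold change was nearer 0, such as 0.16 against 0.81 by edgeR at the Junb peak starting at 84974912. The deposited values may therefore not be on the same scale, and the deposited 0.68 is not comparable with the value without the gene density trend.

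Downstream of Fos, an intergenic peak at 23.0 kb (chr12:85496804-85497044) held 2.99 and 1.36 CPM in wild type and 5.34 and 4.32 in Helios null. Its log2 fold change of 1.10 (SE 0.37, edgeR adjusted p = 0.192) was the highest of any member peak. Another at 13.9 kb (start 85487478) held 8.74 and 4.71 against 13.1 and 9.21 CPM, a difference of 0.71 (edgeR adjusted p = 0.250). In all 3 of these distal peaks both null libraries exceeded both wild-type libraries, as they did at 28% of all tested peaks. These 3 have the smallest p of the Fos peaks, so the separation there is no separate support. Wild type 2 was the lowest of the 4 libraries in each.

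At the Fos promoter itself the values were closer. The broad peak over the start (chr12:85473422-85475544) held 52.0 and 41.8 CPM in wild type and 60.2 and 53.5 in Helios null, a log2 fold change of 0.28 (SE 0.19, edgeR adjusted p = 0.412). It was 0.05 without the gene density trend and ran from 0.13 to 0.44 with 1 library left out. The groups did not overlap, but the gap between wild type 1 and Helios null 2 was smaller than the SD of either group. The small promoter-TSS peak just upstream (start 85472934) held 4.15 and 2.26 against 3.92 and 2.97 CPM and overlapped (0.08, SE 0.35, edgeR adjusted p = 0.914). The other 8 peaks of Fos had values from 0.14 to 0.61, and the difference between distal and promoter peaks was not tested.

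**Figure D3:**
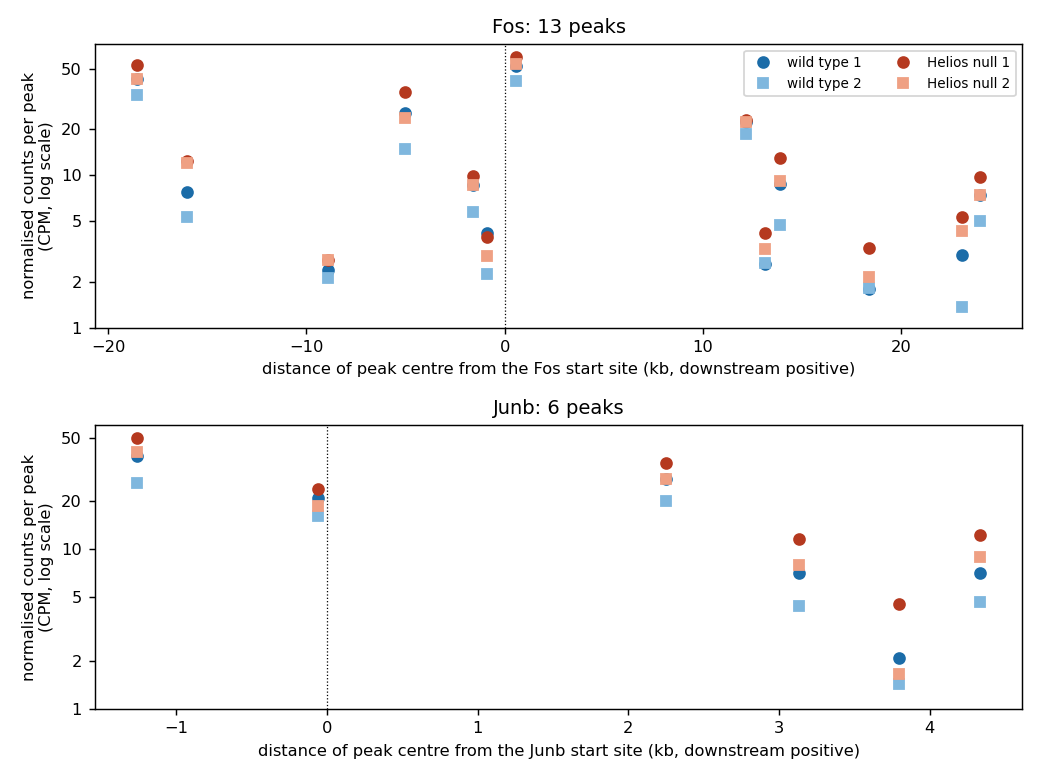
Normalised counts per peak (CPM, log axis) against the distance of the peak centre from the RefSeq start site (kb, downstream positive) for the 13 Fos and 6 Junb peaks, with 1 point per library. The red points lie above the blue ones of the same shape at every peak except the small Fos peak 0.89 kb upstream, where wild type 1 is at 4.15 and Helios null 1 at 3.92.

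Fosb, the close relative of Fos that is induced with it, had 7 peaks with no such separation. The groups overlapped at all 7, with log2 fold changes from -0.29 to 0.34 and a median of 0.06. Its peak with the highest CPM, in an exon (chr7:19307818-19308908), held 44.0 and 29.5 CPM in wild type and 42.1 and 34.7 in Helios null (log2 fold change 0.06, SE 0.22, edgeR adjusted p = 0.896). The peak with the smallest p of Fosb was 6.65 kb upstream (chr7:19316241-19317152), with 31.7 and 23.8 against 39.1 and 27.2 CPM (0.25, SE 0.23, edgeR adjusted p = 0.541). Wild type 1 and wild type 2 differed from each other at these sites by more than the genotypes did.

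Of the promoter-TSS peaks of Fosb, the one that spans its start (start 19309965) held 5.15 and 4.58 CPM in wild type and 4.49 and 5.06 in Helios null (-0.03, SE 0.27, edgeR adjusted p = 0.952). The one just upstream (start 19310276) held 9.03 and 5.81 against 5.57 and 6.68 CPM (-0.29, SE 0.29, edgeR adjusted p = 0.572). Fosb lies in the most gene-rich surroundings of the family, with a median of 53 genes within 0.5 Mb, and its median was -0.27 without the gene density trend. Its within-number differences at the second of these peaks had opposite signs, -0.69 for number 1 and 0.20 for number 2.

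The genes of the Fos-related antigens are Fosl1 and Fosl2, and 0 of their 4 peaks passed. Fosl1, which encodes Fra-1, had 1 peak that spans its start and is classed as intronic (chr19:5447413-5449061). It held 14.2 and 9.62 CPM in wild type and 15.3 and 15.1 in Helios null (log2 fold change 0.35, SE 0.24, edgeR adjusted p = 0.424), and its value was 0.03 without the gene density trend. Fosl2, which encodes Fra-2, had 3 peaks with values from 0.26 to 0.41, and the groups overlapped at 2 of them. Its promoter-TSS peak (chr5:32134956-32136111) held 34.9 and 30.9 CPM in wild type and 39.2 and 39.6 in Helios null, with both null libraries above both wild-type ones (log2 fold change 0.26, SE 0.18, edgeR adjusted p = 0.427). Fosl2 is in gene-poor surroundings, with 6 genes within 0.5 Mb, and its promoter had a log2 fold change of 0.43 without the gene density trend.

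Batf, which works with IRF4 and IRF8 in lymphocytes and dendritic cells, had 4 peaks with values from 0.36 to 0.43. Its promoter (chr12:85686175-85687344) held 24.3 and 18.3 CPM in wild type and 30.5 and 24.4 in Helios null. The lower null library was barely above the higher wild-type library, and the log2 fold change was 0.36 (SE 0.22, edgeR adjusted p = 0.36), with 0.33 and 0.41 within the numbers. Between Fos and Batf lies Jdp2, a repressor that dimerises with Jun proteins. Its 13 peaks all had values above 0 with a median of 0.42, and 9 of them had both null libraries above both wild-type libraries, a separation found at 28% of all tested peaks. Without the gene density trend 11 of the 13 were above 0 with a median of 0.24.

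Batf3, the factor needed for cross-presenting dendritic cells in the mouse, had 8 peaks with a median of -0.10. At the peak over its start (chr1:191098247-191098682) the values were 4.55 and 4.65 CPM in wild type and 3.59 and 3.23 in Helios null. Both null libraries lay below, by more than the spread within either group, with a log2 fold change of -0.43 (SE 0.28, edgeR adjusted p = 0.391). Such an order was found at 28.3% of all tested peaks. The other promoter-TSS peaks of Batf3 gave 2.56 and 2.71 against 2.04 and 2.09 CPM (start 191097841, -0.34), 10.3 and 9.23 against 10.1 and 8.68 (start 191097212, -0.06) and 1.26 and 0.969 against 1.39 and 1.27 (start 191097032, 0.23). The edgeR adjusted p of these 3 ran from 0.545 to 0.910. Its peak with the highest CPM, 13.0 kb downstream of the start (chr1:191111011-191111809), held 11.9 and 9.17 against 11.8 and 10.6 CPM (0.08, SE 0.24, edgeR adjusted p = 0.863).

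Atf3 had 6 peaks, and the groups overlapped at all of them, where 28% of all tested peaks had both null libraries above and 28.3% below. Its promoter (chr1:191182335-191183696) held 26.3 and 25.4 CPM in wild type and 29.8 and 25.1 in Helios null (log2 fold change 0.09, SE 0.20, edgeR adjusted p = 0.824). The smallest p of Atf3 was at an intronic peak 33.2 kb upstream of the RefSeq start (chr1:191216168-191216870), with 2.36 and 3.04 against 2.64 and 1.83 CPM (-0.25, SE 0.34, edgeR adjusted p = 0.695). Batf3 and Atf3 had the only negative medians besides Jun, at -0.10 and -0.09, and -0.23 and -0.25 without the gene density trend.

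**Figure D4:**
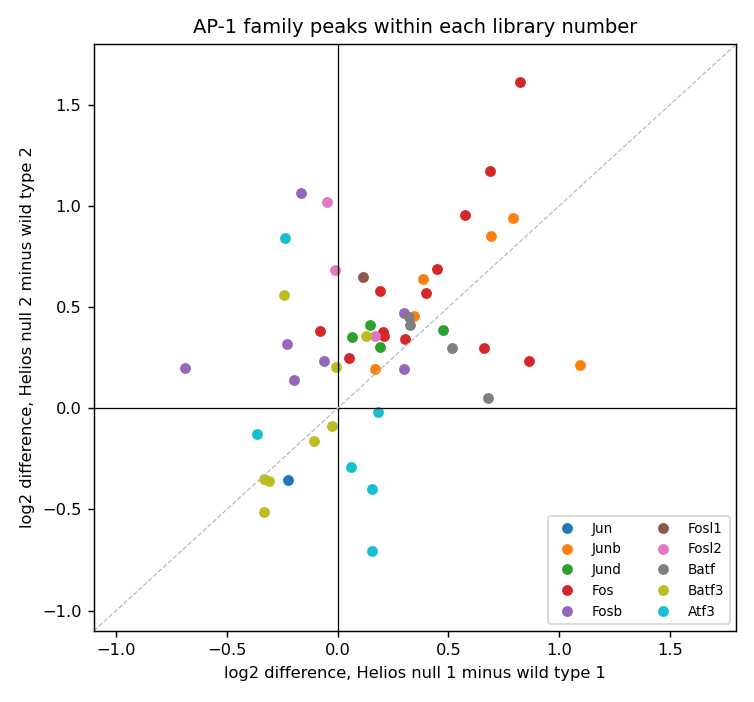
Log2 difference of Helios null minus wild type for the libraries numbered 1 (horizontal axis) and 2 (vertical axis), 1 point per peak, coloured by gene, with the dashed line marking equal differences. Of the 53 peaks, 31 lie in the upper right and 7 in the lower left, the latter from Jun, Batf3 and Atf3.

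By branch, the median log2 fold change was 0.39 over the 11 peaks of Jun, Junb and Jund, 0.32 over the 24 peaks of the Fos genes and 0.01 over the 18 peaks of Batf, Batf3 and Atf3. Without the gene density trend these were 0.08, 0.08 and -0.14. Promoter-TSS peaks of the family had a median of 0.09 (15 peaks) and distant-promoter peaks one of 0.31 (16 peaks), beside 0.02 and 0.08 over all tested peaks of those classes. With the gene density trend removed, the family medians were -0.13 and 0.04, beside -0.10 and 0.06 over all tested peaks of those classes. Branches and classes share genes and libraries, and the differences between them were not tested.

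**Figure D5:**
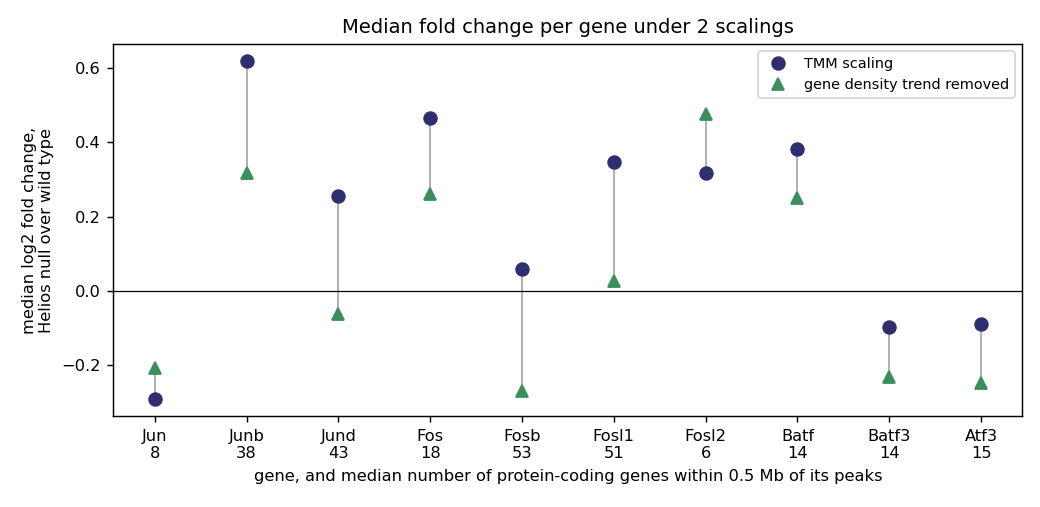
Median log2 fold change of Helios null over wild type for each gene (vertical axis), with circles for TMM scaling and triangles after each library's trend with local gene density was removed; the number under each gene is the median count of protein-coding genes within 0.5 Mb. Junb, Fos, Fosl1, Fosl2 and Batf stay above 0, Jund and Fosb pass below it, and Jun, Batf3 and Atf3 stay below.

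Genes around AP-1 were described by 4 further lists. Of 294 peaks of upstream MAP kinase genes, 214 were above 0 and the median was 0.27 on the log2 scale, and 127 (43.2%, against 28% of all tested peaks) had both null libraries above. Of 239 peaks of other immediate early and cell dissociation genes, 164 were above 0 with a median of 0.29, and of 154 peaks of known AP-1 target genes 108 were, with a median of 0.28. The 179 peaks of other basic leucine zipper genes had a median of 0.03, with 94 above 0. In the order given, 41, 37, 22 and 26 peaks had an unadjusted p under 0.05 with higher values and 15, 21, 9 and 18 with lower ones, and 0 passed the edgeR test. Over all tested peaks 8.29% were higher and 11.5% lower at that p. Without the gene density trend the 4 medians were 0.28, 0.18, 0.18 and 0.11.

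The peaks with the smallest p went both ways between lists, and within a list only those of the AP-1 target genes did. Both were higher in Helios null for the immediate early and dissociation genes. For the upstream MAP kinase genes and the other basic leucine zipper genes both were lower. Near Btg2, an antiproliferative immediate early gene, an intergenic peak held 12.2 and 11.1 CPM in wild type and 33.2 and 20.6 in Helios null (log2 fold change 1.21), and one near the MAP kinase phosphatase gene Dusp1 held 2.96 and 2.32 against 5.94 and 5.67 CPM (1.12). A peak near the cyclin gene Ccnd1 held 7.44 and 7.68 against 18.5 and 14.8 CPM. Lower in Helios null were the promoter of Mapkapk2, a kinase downstream of p38, with 7.08 and 5.68 against 2.11 and 1.44 CPM (-1.84), and a peak near Map3k7, the kinase TAK1, with 7.14 and 10.5 against 2.80 and 3.05 CPM (-1.58). A peak of Creb1 held 1.63 and 2.58 against 0.231 and 0.480 CPM (-2.57), the Crem promoter 41.8 and 61.7 against 22.2 and 27.6 CPM (-1.05), and an exonic peak of the growth factor receptor gene Egfr 20.9 and 23.8 against 9.99 and 13.6 CPM (-0.92). All 8 had an edgeR adjusted p of 0.189, and those of Creb1, Mapkapk2 and Btg2 lie on chromosome 1, as Ikzf2 does, with Creb1 4.93 Mb from it.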

How the data were processed

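Per the file headers, the authors deposited raw counts per peak for each library. Their table also gives baseMean, a signal deposited as the mean count after size factors, and the authors' log2 fold change (Helios null over wild type) with its standard error, p-value and adjusted p-value. The submitters' processing notes name bcl2fastq (2.17.1.14), HOMER, DESeq, Bowtie2 (2.3.4.3) and mm10. Tool roles, the peak caller and any pooling of reads for calling were not stated.

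Counts were analysed with edgeR 4.0.16 (filterByExpr, TMM, glmQLFit and glmQLFTest, 2-sided, Benjamini-Hochberg over all 130754 tested peaks) in R 4.3.3. Alternatives were limma-voom (limma 3.58.1), DESeq2 1.42.0 and its size factors, total counts, promoter-peak TMM, loess and gene density offsets, other filters, a block on library number and each library left out. Values per library are TMM-normalised CPM, and log2 differences within numbers used a prior count of 2. Gene density counted protein-coding RefSeq genes of GRCm38.p6. The edgeR test was tried on counts simulated without an effect of library number or a gene density trend. The members, lists and tests were chosen with earlier results of these data known. Values per library are given for every promoter-TSS peak of a member, each gene's peak with the highest CPM and its peak with the smallest p, and in each further list for the 2 peaks with the smallest p. Peaks described beyond these were chosen after their values were seen, as were the motifs TGACG and TGACATCA.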

Additional observations from a re-analysis of the deposited data

How the results depend on the processing

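Over all tested peaks, 8 passed. DESeq2 called 991, limma-voom 4, the replicate block on library number 30595 and that block with gene density offsets (added after seeing the data) 21974. Leaving out 1 library gave 39 to 28120 calls.

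Of the 53 AP-1 peaks, 0 passed and 3 had an adjusted p under 0.2, all higher (against 3.41% of all peaks). The replicate block called 8, all higher (4 of Fos and 4 of Junb), where it called 10.6% of all peaks as higher. The block with gene density offsets called 5 higher and 1 lower (the Fosb peak 19310276), 6 in all, against 8.2% and 8.6% of all peaks, and 4 of these were among the 8. Leaving out 1 library gave 0 to 9, the most without wild type 1. The other alternatives gave 0. The deviations of same-numbered libraries had a correlation of 0.37 across peaks. The labels state no pairing by number, so the model without the block was kept as the main one.

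The median of the AP-1 peaks stayed above 0, from 0.02 (gene density offsets) to 0.47. That of the other basic leucine zipper list was 0.11 under gene density offsets and 0.11 with the block as well.

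Of 24 named peaks, 7 had the opposite sign with gene density offsets: Atf3 191182335 (-0.082), Batf3 191111011 (-0.075), Fos 85472934 (-0.14), Fosb 19307818 (-0.27), Fosb 19316241 (-0.090), Junb 84978595 (-0.13) and Jund 70698322 (-0.12). With the block as well the values were -0.079, -0.073, -0.11, -0.27, -0.093, -0.13 and -0.12. Leaving out 1 library moved Atf3 191182335 from -0.046 to 0.20, Batf3 191097212 from -0.17 to 0.048, Batf3 191111011 from -0.085 to 0.28, Fos 85472934 from -0.26 to 0.61, Fosb 19307818 from -0.20 to 0.37, Fosb 19309965 from -0.12 to 0.053, Fosb 19310276 from -0.57 to 0.065, Fosb 19316241 from -0.032 to 0.49 and Junb 84978595 from -0.0058 to 0.37. The cause was not tested. With 2 libraries per genotype and down to 124 counts over the 4 libraries in a member peak, small differences were not detectable. Large ones could also fail to pass, as the Creb1 peak did with a log2 fold change of -2.57 (edgeR adjusted p = 0.189). A lack of calls among the AP-1 peaks therefore does not show that sizeable differences are absent.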
